A study of Mus musculus with 35 samples.

Results

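The metabotropic glutamate receptors described here are Grm2, Grm3, Grm4, Grm5, Grm7 and Grm8, chosen by symbol, and all 6 were among the 32544 genes counted. The values come from hippocampal RNA of male C57BL/6JOlaHsd mice, adults that received kainic acid (KA) into the amygdala through a cannula, with lorazepam given afterwards to limit the status epilepticus that KA evokes, or PBS in place of KA. Tissue was taken at 24 h or at 2 weeks, and each library came from 1 mouse. RNA pulled down with an antibody against N6-methyladenosine (m6A) was sequenced from 5 KA and 3 PBS mice at 24 h and from 6 KA and 5 PBS mice at 2 weeks. Input RNA, which was not pulled down, was sequenced from 4 KA and 3 PBS mice at 24 h and from 6 KA and 3 PBS mice at 2 weeks. The labels give no difference in genotype, strain or sex between the groups. The tissue was whole hippocampus, so fewer cells of a type and less RNA per cell cannot be told apart in any of the values below.

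Metabotropic glutamate receptors are G protein-coupled receptors that respond to synaptic glutamate more slowly than the ion channel receptors that KA itself activates. Grm5 encodes a group I receptor, which couples through Gq to phospholipase C, sits mostly on the postsynaptic side of excitatory synapses and takes part in a form of long-term depression. Group II (Grm2 and Grm3) and group III (Grm4, Grm7 and Grm8) receptors couple through Gi/o to adenylyl cyclase, and many of them lie on axon terminals, where they lower the release of glutamate. In the hippocampus, Grm2 is best known from the mossy fibres of dentate granule cells, Grm3 is also made by astrocytes, and Grm7 is found at the active zones of many synapses. m6A is the most common internal modification of mRNA, and it lies mostly in long exons and around the stop codon within a short consensus whose core is often written GGACT.

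RefSeq annotation of the GRCm38.p6 assembly, the build that the submitters' processing notes name as mm10, places Grm5 on chromosome 7 (87583981 to 88135063), Grm2 on chromosome 9 (106644534 to 106656109) and Grm3 on chromosome 5 (9485236 to 9725352). It places Grm4 on chromosome 17 (27422387 to 27513826), and both Grm7 (110645349 to 111567230) and Grm8 (27275121 to 28135146) on chromosome 6. Grm2 is a compact gene of 11.6 kb, whereas Grm7 spans 921.9 kb, Grm8 860.0 kb, Grm5 551.1 kb, Grm3 240.1 kb and Grm4 91.4 kb. Counts are per gene, so the position of m6A within a transcript was not measured. To show the sequence that the antibody could meet, the GGACT nearest to the stop codon of each canonical transcript (GENCODE vM39) is printed with 12 bases on either side, 5′ to 3′ on the transcript strand, with the motif in capitals.
Grm5: cagggactcggtGGACTcggggagcacca
Grm2: ccgcctctacaaGGACTtcgtgctcaatg
Grm3: aagggaagtcctGGACTccaccacctcat
Grm4: ccactcggtggtGGACTtccaggaccagc
Grm7: cagcctggcgtaGGACTcttttggtcctg
Grm8: aggatcttcctgGGACTtggtatgtgttt
The motif of Grm3 lay in coding sequence 20 bases before the stop codon, that of Grm5 116 bases before it, and that of Grm7 in the 3′ UTR 72 bases after it. In Grm4, Grm8 and Grm2 the nearest GGACT was a coding one 554, 757 and 1355 bases before the stop codon. Grm5 and Grm7 each held 6 copies of GGACT on the transcript strand, Grm3 and Grm4 4, Grm2 3 and Grm8 1. Per kb of transcript, Grm7 held 1.43 copies and Grm8 0.259, the other 4 members held between 0.628 and 0.865, and the median of 18478 protein-coding genes was 1.04. Of those genes, 90.5% held the motif at least once, so its presence is a description of these transcripts and not evidence of a methylated site.

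Library depth ranged from 1652933 to 34564536 counts in the 19 m6A libraries and from 3171 to 12694434 in the 16 input libraries. As the rule for the receptors sets, only the 13 input libraries with 100000 or more counts were used, which left 1 PBS mouse (mouse 1) and 3 KA mice (mice 67, 98 and 8) for input at 24 h. At 24 h, the m6A libraries of KA mice 67 and 98 had under 2000000 counts. Mitochondrial genes took 16.4% and 17.4% of the counts in the m6A and input libraries of KA mouse 8 and 17.5% in the m6A library of KA mouse 6, against 11.1% or less in the other libraries used. The m6A libraries carry 3 prefixes in their column names, read here as library sets, and the sets were not balanced over KA and PBS. All markers of excitatory neurons and dentate granule cells were counted in every library used, and 1 of 6 pyramidal cell markers was at 0 in a KA m6A library at 24 h.

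Grm5 was the most abundant of the 6 receptors and Grm4 the least. In CPM (counts scaled to a common library total) per kb of canonical transcript, PBS m6A libraries at 2 weeks averaged 43.9 ± 5.33 (SD, n = 5) for Grm5, 24.0 ± 5.64 for Grm7, 16.4 ± 6.02 for Grm3, 8.32 ± 3.58 for Grm8, 2.88 ± 1.15 for Grm2 and 2.47 ± 1.25 for Grm4. The order from Grm5 to Grm7 held in 19 of 19 m6A libraries and in 13 of 13 input libraries. Grm7 was above Grm3 in 18 and 13 libraries, Grm3 above Grm8 in 17 and 11, Grm8 above Grm2 in 18 and 11, and Grm2 above Grm4 in 16 and 12. The means of Grm2 and Grm4 differed by less than their SD, and over all libraries the ranges of each of the 5 pairs of neighbours overlapped. Grm5 alone took a median of 69.9% of the counts of the 6 receptors in PBS m6A libraries at 24 h and 58.5% in KA m6A libraries at 24 h. Raw counts of Grm5 in a library were 385 or higher, whereas those of Grm4 were as low as 11 and those of Grm2 as low as 15, so values of these 2 receptors carry more counting error.

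**Figure D1:**
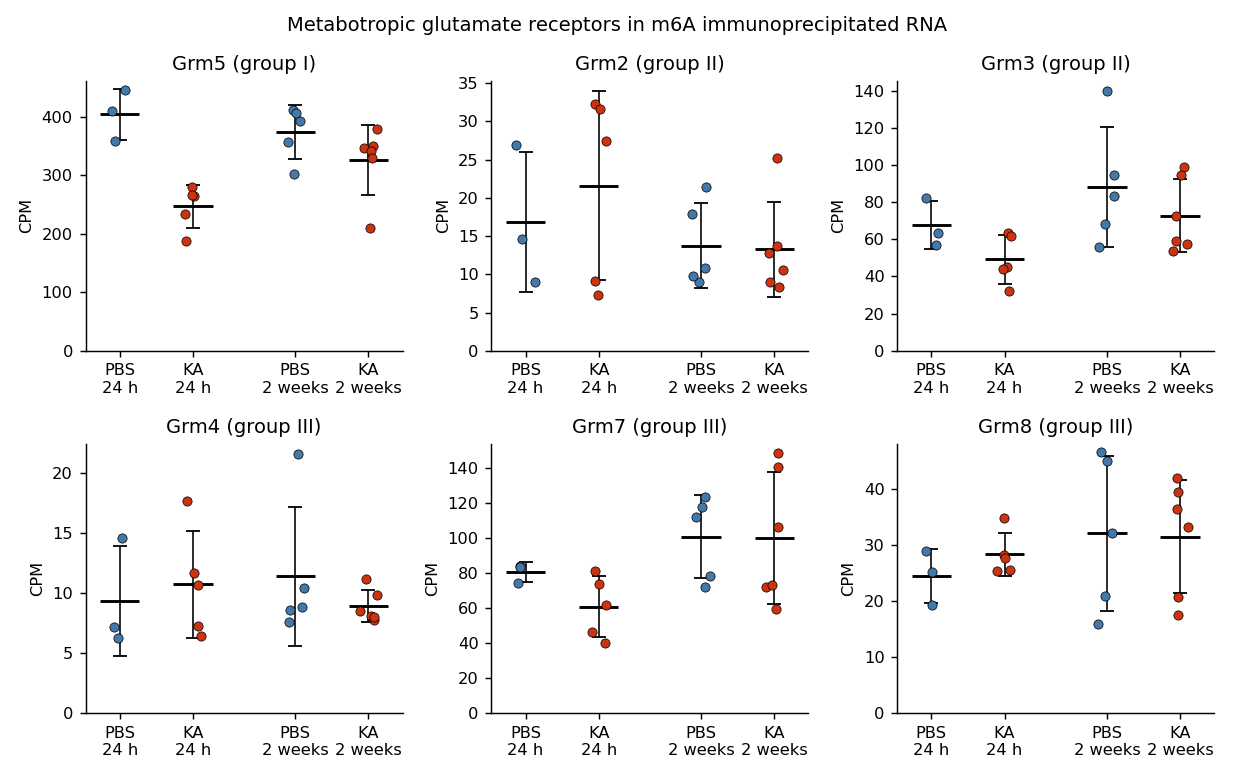
CPM (vertical axis, from 0) of each receptor in the m6A libraries of PBS (blue) and KA (red) mice at 24 h and 2 weeks. Each point is 1 mouse, thick bars are means and whiskers are SD. At 24 h the 5 KA points of Grm5 (188 to 279.8 CPM) lie below the 3 PBS points (359 to 446 CPM), and the groups of the other receptors overlap.

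At 24 h after KA, Grm5 was lower in every KA m6A library than in any PBS m6A library, and no receptor passed the test across all genes. Grm5 was at 265, 233, 279.8, 267 and 188 CPM in KA mice 67, 98, 97, 79 and 8, and at 409, 359 and 446 CPM in PBS mice 71, 73 and 1. The highest KA library was thus well under the lowest PBS library, with KA mouse 8, the library rich in mitochondrial counts, lowest. The log2 fold change of KA against PBS was -0.74 (SE 0.22, adjusted P = 0.553, edgeR quasi-likelihood test with Benjamini-Hochberg adjustment over 16470 genes, 5 against 3 mice). Every KA library was below every PBS library for 1.09% of all genes tested and for 1 of the 6 receptors. At an adjusted P under 0.05, the test called 0.00607% of all genes and 0 of the 6 receptors, and at an unadjusted P under 0.05 it took in 5.31% of genes (875) and 1 of the receptors, Grm5. Without the filter on low counts Grm5 was no longer among them. Such genes were 577 of 17116 without PBS mouse 71, 567 of 17183 without PBS mouse 73 and 1357 of 16112 without KA mouse 8. Each of these 3 fits had 1 receptor among them. DESeq2, which called 0.947% of genes in these libraries, called Grm5 as lower (log2 fold change -0.76, SE 0.18, adjusted P = 0.00471). Across the 7 other settings tried, with DESeq2 among them, the log2 fold change of Grm5 ran from -0.85 to -0.61 and its adjusted P from 0.00471 to 1.00. Within library set 4, the one set of 24 h that holds both treatments (KA mice 97 and 79, PBS mice 71 and 73), it was -0.61 (SE 0.13, adjusted P = 0.0716). Leaving out KA mouse 8 gave -0.73 (adjusted P = 0.234).

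The group II receptor Grm3, which neurons and astrocytes both express, was at 45.0, 63.5, 61.6, 43.8 and 31.9 CPM in KA mice 67, 98, 97, 79 and 8, and at 57.1, 82.1 and 63.3 CPM in PBS mice 71, 73 and 1. Of the 5 KA libraries, 3 were below all PBS libraries, and the groups overlapped (log2 fold change -0.50, SE 0.27, adjusted P = 0.983). Grm7, the presynaptic group III receptor of highest level here, was at 61.6, 46.6, 81.3, 74.1 and 40.3 CPM in the same KA mice and at 74.3, 84.1 and 83.6 CPM in the PBS mice. For Grm7, 4 of 5 KA libraries were below all PBS libraries, and the log2 fold change was -0.45 (SE 0.25, adjusted P = 0.983). Grm2 split the KA mice, with 32.3, 27.5 and 31.7 CPM in mice 67, 97 and 79 but 9.07 and 7.35 CPM in mice 98 and 8, against 14.6, 26.97 and 8.93 CPM in PBS mice 71, 73 and 1. Grm4 was at 17.7, 7.26, 10.7, 11.7 and 6.45 CPM in KA mice 67, 98, 97, 79 and 8 against 6.27, 14.6 and 7.16 CPM in the PBS mice, and Grm8 at 34.9, 25.4, 28.3, 27.8 and 25.6 CPM against 19.4, 25.2 and 28.9 CPM. All 3 receptors overlapped between the groups. Their log2 fold changes were 0.26 (SE 0.50) for Grm2, 0.12 (SE 0.39) for Grm4 and 0.19 (SE 0.25) for Grm8, with adjusted P from 0.983 to 0.990. The sign for Grm4 was not stable. Its log2 fold change was -0.023 within library set 4 and ran from -0.13 to 0.65 when single libraries were left out. Over the 6 receptors, 3 values were above and 3 below 0, with a median of -0.16 beside 0.083 over all genes tested.

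Input RNA at 24 h gave a Grm5 difference of like size from a single PBS library. KA mice 67, 98 and 8 and PBS mouse 1 also gave m6A libraries, so input adds no other animals. Grm5 was at 263, 244 and 135 CPM in KA mice 67, 98 and 8 and at 435 CPM in PBS mouse 1. All KA libraries were lower, and the log2 fold change was -0.74 (SE 0.27, adjusted P = 0.442 over 17644 genes), in a fit of all 13 input libraries that assumes the lone PBS library varies like the other groups. For 33.1% of all genes the 3 KA libraries were below that PBS library, as they were for 3 of the 6 receptors (Grm5, Grm7 and Grm8), so this order says little. The test called 0% of genes and none of the receptors at an adjusted P under 0.05, and it took in 9.23% of genes (1628) and 1 receptor, Grm5, at an unadjusted P under 0.05. None of the receptors was past that level when only the 4 libraries of 24 h were fitted or when the 3 shallow libraries were added. Without KA mouse 8 the log2 fold change of Grm5 was -0.56 (adjusted P = 0.165). With scaling by library size it was -1.02, and with the 3 shallow libraries added it was -0.48. That scaling moved the median log2 fold change of all genes from 0.27 to -0.038 in this comparison.

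In input at 24 h, the KA range of each of the other 5 receptors took in the single PBS value after TMM scaling. On plain CPM, Grm7 and Grm8 were lower in all KA libraries. Grm7 was at 65.1, 53.5 and 31.5 CPM in KA mice 67, 98 and 8 against 68.1 CPM in PBS mouse 1, and Grm8 was at 13.3, 23.8 and 18.4 CPM against 25.8 CPM. After TMM scaling the KA range of both receptors overlapped the PBS value, and their log2 fold changes were -0.17 (SE 0.40) and -0.18 (SE 0.43). Grm3 was at 30.7, 55.5 and 19.4 CPM against 44.7 CPM, with a log2 fold change of -0.085 (SE 0.38). Grm2 was at 19.8, 7.68 and 10.2 CPM against 12.1 CPM (0.37, SE 0.49), and Grm4 at 13.3, 5.12 and 7.77 CPM against 7.88 CPM (0.46, SE 0.59), with KA libraries on both sides of the PBS library. Adjusted P of these 5 receptors was 0.800 or higher. The median over the 6 receptors was -0.13 beside 0.27 over all genes.

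Marker genes of the cell types in the tissue were read beside Grm5 at 24 h. In m6A libraries, the summed CPM of 5 dentate granule cell markers was 162 to 423 in KA and 395 to 469 in PBS mice, with overlap. Over these markers the median log2 fold change was -0.68, with 2 of 5 lower and 0 higher at an unadjusted P under 0.05. In input the sum was 242 to 369.9 in KA mice against 464 in the PBS mouse, with a median log2 fold change of -0.17 and 0 of 5 markers at an unadjusted P under 0.05. The sum of 6 pyramidal cell markers in m6A was 93.8 to 426 CPM in KA and 265 to 386 CPM in PBS mice. Their median log2 fold change was -0.50, with 1 of 6 lower and 0 higher at an unadjusted P under 0.05. The sum of 6 excitatory neuron markers was 821 to 3612 CPM in KA m6A libraries and 2238 to 5035 CPM in PBS m6A libraries. The sum of 6 astrocyte markers was 645 to 3366 against 1238 to 1701 CPM. Over the 12 marker lists in m6A, the median log2 fold change ran from -0.68 (dentate granule cell) to 0.86 (choroid plexus), with oligodendrocyte at -0.44 and astrocyte at 0.25. No marker gene passed an adjusted P of 0.05 in the 4 comparisons of KA with PBS, and the part of cell loss or cell composition in the Grm5 values was not tested.

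**Figure D2:**
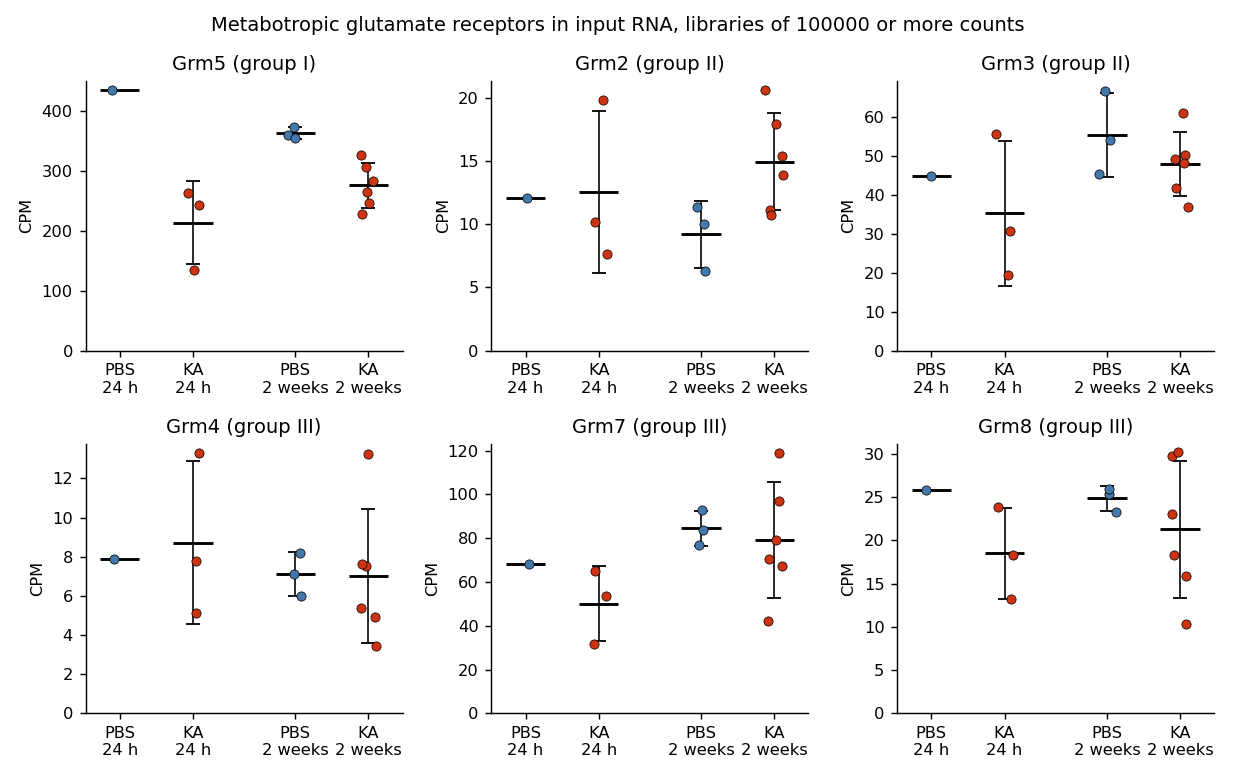
CPM (vertical axis, from 0) of each receptor in the input libraries of 100000 or more counts, PBS in blue and KA in red, with means and SD. Grm5 lies lower in all KA mice than in the PBS mice of the same time (135 to 263 against 435 CPM at 24 h, 228 to 327 against 355 to 374 CPM at 2 weeks), and only 1 PBS mouse stands at 24 h.

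At 2 weeks after KA, input Grm5 was also lower in each KA mouse than in any PBS mouse, by a smaller margin. The 6 KA libraries ranged from 228 to 327 CPM with a median of 274, and the PBS libraries of mice 2, 3 and 4 were at 361, 374 and 355 CPM. The groups did not overlap on plain CPM. On TMM-scaled CPM they nearly met, with the highest KA library at 329 and the lowest PBS library at 332. The log2 fold change was -0.38 (SE 0.13, adjusted P = 0.277 over 13752 genes, edgeR quasi-likelihood test, 6 against 3 mice). On plain CPM, every KA library was below every PBS library for 3.80% of all genes and for 1 of the 6 receptors. The test called 0% of genes and none of the receptors at an adjusted P under 0.05, while 14.1% of genes (1938 of 13752) and 2 receptors, Grm5 and Grm2, had an unadjusted P under 0.05. Without PBS mouse 3 these were 901 of 14342 genes and 0 receptors, and without PBS mouse 4 they were 1162 of 13939 genes and 2 receptors. Across the 6 other settings the log2 fold change of Grm5 ran from -0.40 to -0.34, with -0.34 in the one library set that held both treatments. With each library left out in turn it ran from -0.44 to -0.30, and the lowest adjusted P was 0.185. The dentate granule cell markers summed to 283 to 446 CPM in KA and 402 to 429 CPM in PBS input libraries. Of these 5 markers 3 had a log2 fold change above 0, with a median of 0.39, and at an unadjusted P under 0.05 there were Prox1 (0.84) and C1ql2 (1.43) on the higher side and Calb1 (-0.73) on the lower. The 6 astrocyte markers summed to 1339 to 3615 CPM in KA against 818 to 1264 CPM in PBS, with a median log2 fold change of 0.63. The part of either cell type in the Grm5 difference was not tested.

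Grm2 went the other way in input at 2 weeks. KA libraries ranged from 10.7 to 20.6 CPM with a median of 14.7, and PBS mice 2, 3 and 4 were at 9.99, 6.27 and 11.4 CPM, so that 4 of 6 KA libraries were above all PBS libraries. The log2 fold change was 0.72 (SE 0.26, adjusted P = 0.291), and it ran from 0.56 to 0.90 when each library was left out in turn. Grm2 rests on 22 to 144 counts per library here. Grm3 ranged from 36.8 to 60.8 CPM in KA mice (median 48.6) around PBS values of 66.6, 45.3 and 54.0 CPM, with a log2 fold change of -0.18 (SE 0.16). Grm7 ranged from 42.0 to 118.8 CPM (median 74.9) around 92.8, 76.7 and 83.9 CPM (-0.071, SE 0.23), and Grm8 from 10.3 to 30.2 CPM (median 20.7) around 25.3, 25.9 and 23.2 CPM (-0.20, SE 0.25). Grm4 ranged from 3.43 to 13.2 CPM (median 6.46) in KA mice and was at 6.00, 7.13 and 8.22 CPM in PBS mice. All 6 receptors had a wider range of CPM in the 6 KA mice than in the 3 PBS mice. A range tends to widen with more mice. The SD was larger in KA mice for every receptor but Grm3 (8.19 CPM in KA against 10.7 CPM in PBS mice). These differences were not tested. The log2 fold change of Grm4 was 0.068 (SE 0.34) over all libraries and -0.59 within the library set that held both treatments. The median over the 6 receptors was -0.12 beside 0.017 over all genes.

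In the m6A pulldown at 2 weeks, Grm5 of KA mice overlapped that of PBS mice. KA libraries ranged from 209 to 379.8 CPM with a median of 344, and PBS mice 50, 78, 2, 3 and 4 were at 393, 356, 411, 407 and 302 CPM. KA mouse 42 was the low one, and the 5 others started at 330.2 CPM. The log2 fold change was -0.11 (SE 0.19, adjusted P = 0.928 over 16157 genes), and -0.00024 without mouse 42. No KA group lay wholly below its PBS group among the receptors, as 0.334% of all genes did. The test called 0% of genes and none of the receptors at an adjusted P under 0.05, and 5.01% of genes but none of the receptors had an unadjusted P under 0.05.

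The other receptors were mixed in these libraries. Grm3 was at 83.2, 55.7, 94.8, 68.4 and 139.8 CPM in the PBS mice and 53.8 to 99.0 CPM (median 66.0) in the KA mice (log2 fold change -0.21, SE 0.25). Grm4 was at 8.56, 8.87, 7.56, 10.4 and 21.6 CPM in the PBS mice and 7.78 to 11.2 CPM (median 8.29) in the KA mice (-0.28, SE 0.28). The KA mice ranged from 8.38 to 25.3 CPM (median 11.6) for Grm2, from 59.8 to 148.4 CPM (median 89.8) for Grm7 and from 17.5 to 41.9 CPM (median 34.8) for Grm8, and each of these ranges overlapped that of the PBS mice. The log2 fold changes of Grm2, Grm7 and Grm8 were 0.024 (SE 0.32), 0.045 (SE 0.25) and 0.053 (SE 0.32). Within library set 5 (KA mice 21, 7 and 9, PBS mice 2, 3 and 4) those of Grm7 and Grm8 were -0.11 and -0.25. The 2 PBS mice of library set 4, mice 50 and 78, were the lowest PBS libraries for Grm8 (20.9 and 15.9 CPM against 32.1 to 46.5 CPM) and for Grm7 (78.3 and 72.3 CPM against 112.3 to 123.3 CPM), and the highest for Grm2 (21.4 and 17.8 CPM against 9.04 to 10.9 CPM). The median over the 6 receptors was -0.042 beside -0.0013 over all genes.

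**Figure D3:**
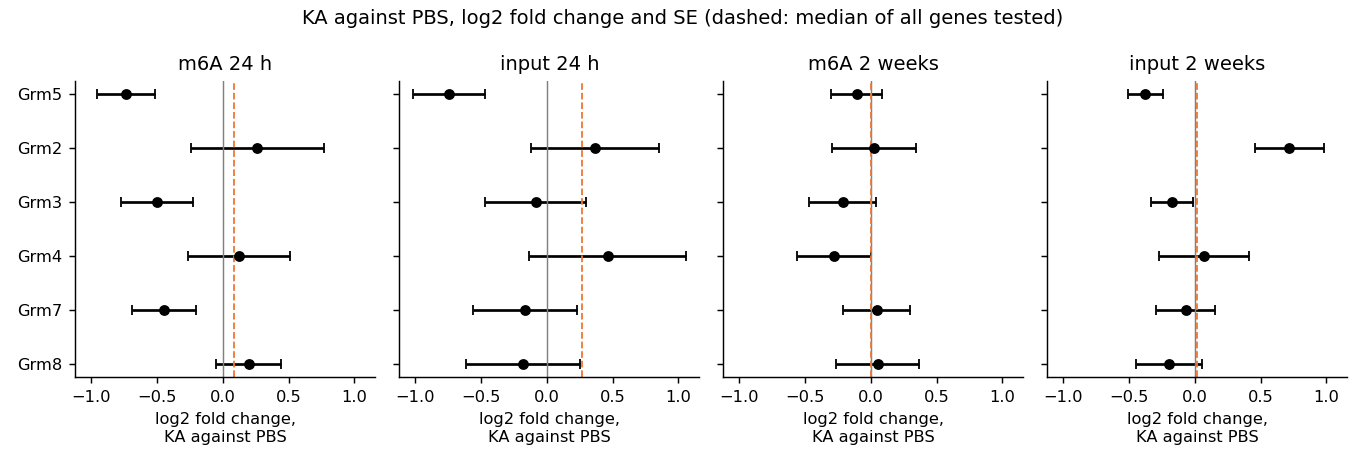
Log2 fold change of KA against PBS (horizontal axis) with its SE for each receptor in 4 comparisons, with the median of all genes tested as a dashed line. Grm5 is at -0.74, -0.74, -0.11 and -0.38 from left to right, and Grm2 stands at 0.72 in input at 2 weeks.

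**Figure D4:**
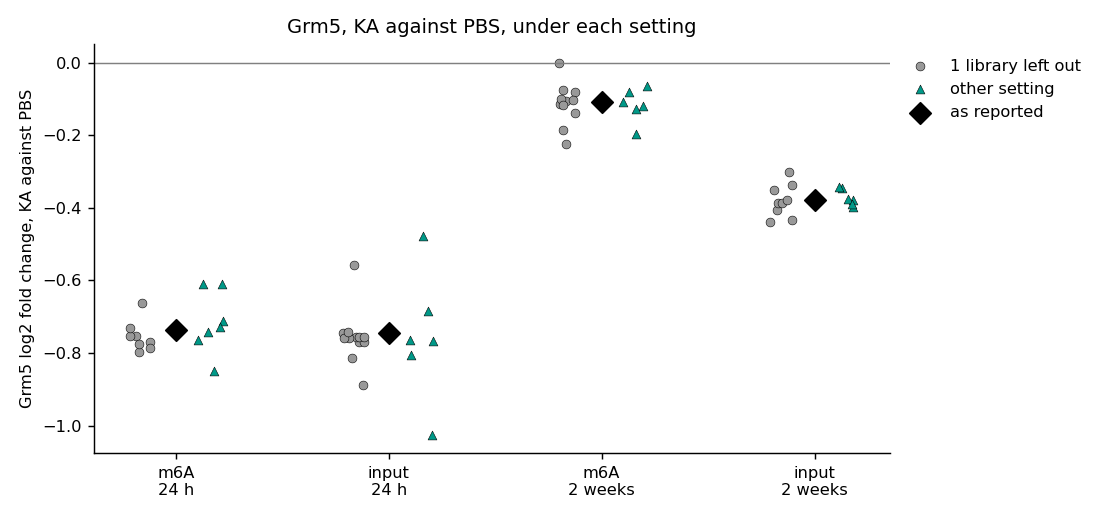
Log2 fold change of Grm5 (vertical axis) in the same comparisons, as reported (diamonds), with 1 library left out (circles) and under the other settings (triangles). Values stay between -0.85 and -0.61 for m6A at 24 h and between -0.44 and -0.30 for input at 2 weeks, and reach -0.00024 for m6A at 2 weeks.

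An interaction term over the 19 m6A libraries compared the KA difference in the pulldown at 2 weeks with that at 24 h. For Grm5 the KA difference was 0.63 higher on the log2 scale at 2 weeks than at 24 h (SE 0.27), and its adjusted P of 1.00 over 17440 genes missed the threshold. Without the libraries of mice 6 and 8, which were rich in mitochondrial counts, it was 0.50. Without KA mouse 42 of 2 weeks it was 0.76. The interaction was 0.49 (SE 0.36) for Grm7, 0.29 (SE 0.38) for Grm3, -0.13 (SE 0.44) for Grm8, -0.24 (SE 0.60) for Grm2 and -0.40 (SE 0.47) for Grm4. The test called 0.00573% of all genes and none of the receptors at an adjusted P under 0.05, and 2.45% of genes (428) and 1 receptor, Grm5, had an unadjusted P under 0.05. That count of receptors was 0 with library size scaling, without mice 6 and 8, and without PBS mouse 1 of 24 h. Without KA mouse 8 alone, 834 of 17219 genes and 1 receptor were past that level.

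How much of each receptor's RNA was pulled down, relative to other genes, was measured as m6A over input at 2 weeks. The labels describe m6A libraries as polyA RNA and input libraries as total RNA, so enrichment by the antibody and the kind of RNA cannot be told apart in this ratio. No library set held both m6A and input libraries, so the set cannot be told apart from them either. In the 3 PBS mice with both libraries, Grm3 was 0.50, 0.58 and 1.37 log2 units higher in m6A than in input CPM (mice 2, 3 and 4), and Grm8 0.81, 0.81 and 0.46. In the 6 such KA mice, Grm3 ranged from 0.22 to 0.91, Grm8 from 0.35 to 0.84 and Grm7 from 0.017 to 0.53, all above 0. These are plain CPM ratios, so a value above 0 is not in itself enrichment over other genes. With library size scaling, the median log2 ratio of all genes was 0.31 in PBS and 0.19 in KA mice. Grm5 was above 0 in 5 of 6 KA mice (-0.12 to 0.52) and 2 of 3 PBS mice (-0.23 to 0.19), and Grm4 in 4 of 6 and 3 of 3. Grm2 was the receptor that tended below 0 in KA mice, where it ranged from -0.88 to 0.25 with 1 of 6 above 0, against -0.22 to 0.42 in PBS mice.

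In the fit across all genes, which uses TMM scaling in place of plain library totals, no receptor passed the threshold. Grm3 had the smallest adjusted P, with log2 ratios of 0.45 (SE 0.26, adjusted P = 0.352) in PBS and 0.41 (SE 0.20, adjusted P = 0.301) in KA mice. Grm7 was at 0.020 (SE 0.29) in PBS and 0.14 (SE 0.23) in KA mice, and Grm8 at 0.13 (SE 0.36) and 0.38 (SE 0.28). Of all genes, 2.31% were called in PBS mice (191 higher and 182 lower in m6A) and 3.08% in KA mice (350 higher and 147 lower). Scaling by library size, which moved the median of all genes from 0.074 to 0.31 in PBS and from -0.0066 to 0.19 in KA mice, gave 892 higher and 144 lower in PBS and 1235 higher and 84 lower in KA mice. With mouse as a replicate block, over the mice with both libraries, 1544 of 15722 genes and none of the receptors were called in KA mice. At an unadjusted P under 0.05 that fit took in 4339 of the 15722 genes and 3 of the receptors. There, the log2 ratio in KA mice was 0.39 for Grm3 (adjusted P = 0.0976), 0.40 for Grm8 (adjusted P = 0.0650) and -0.44 for Grm2 (adjusted P = 0.0898). The change of m6A over input with KA was 0.26 (SE 0.24) for Grm5, 0.12 (SE 0.37) for Grm7, 0.26 (SE 0.45) for Grm8, -0.039 (SE 0.33) for Grm3, -0.32 (SE 0.47) for Grm4 and -0.72 (SE 0.47) for Grm2. Adjusted P was 0.807 or higher for all 6, and the test called 0% of genes. With mouse as a replicate block the Grm2 value was -0.33.

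**Figure D5:**
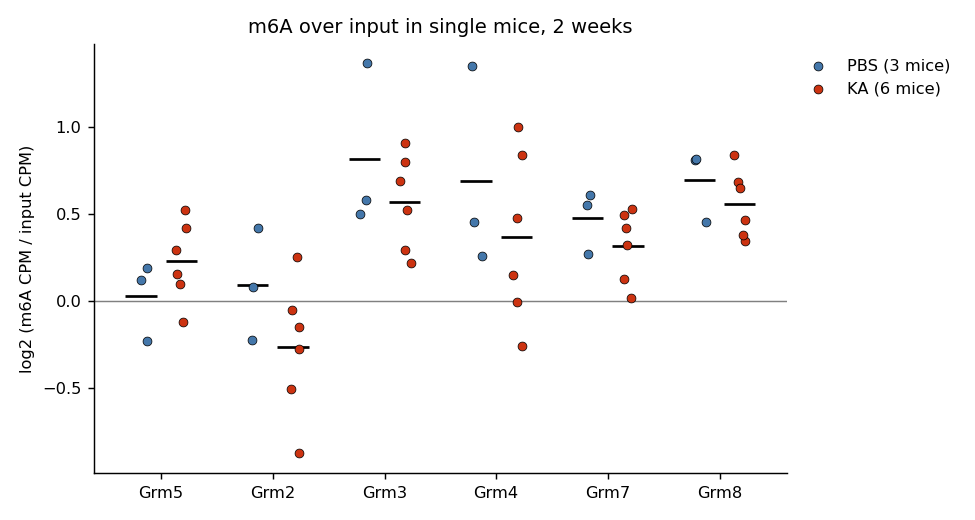
Log2 ratio of m6A CPM to input CPM (vertical axis) in single mice at 2 weeks, 3 PBS mice in blue and 6 KA mice in red, with means as bars. All mice lie above 0 for Grm3, Grm7 and Grm8, and 5 of 6 KA mice lie below 0 for Grm2. With library size scaling the median of all genes was also above 0 (0.31 in PBS and 0.19 in KA mice).

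The genes through which these receptors act were read from 6 lists holding 70 symbols, of which 67 were in the files. In the comparisons of KA with PBS, 0 of 67 had an adjusted P under 0.05 in m6A at either time or in input at 24 h, and 0 of 66 in input at 2 weeks. At an unadjusted P under 0.05, 13 were higher and 5 lower in input at 2 weeks, which is 27.3% of those tested beside 14.1% of all genes. In input at 24 h, 3 were higher and 7 lower, or 14.9% beside 9.23% of all genes. In m6A, 2 were higher and 2 lower at either time, or 5.97% beside 5.31% of all genes at 24 h and 5.01% at 2 weeks. In input at 2 weeks, 7 of the 14 receptor partners and scaffolds tested were on the higher side at an unadjusted P under 0.05 and none on the lower, with a median log2 fold change of 0.31 over that list. The 7 were Shank1, Shank2 and Shank3, scaffolds of the postsynaptic density, Homer3, which binds group I receptors, and Grasp, Ncdn and Elfn2, whereas Homer1 (0.15) and Homer2 (-0.21) were not past that level. In m6A at 2 weeks the same list had a median of -0.27 with 4 of 14 above 0 and 1 on the lower side at an unadjusted P under 0.05. For the change of m6A over input it had a median of -0.72 with 3 on the lower side. That change subtracts the same input libraries, and its 3 genes (Shank1, Shank2 and Elfn2) were among those 7. It is therefore not separate from the input result. The 14 Gq effectors of group I receptors had a median of -0.31 in input at 24 h, -0.18 in m6A at 24 h and -0.0021 in input at 2 weeks. The 12 Gi/o effectors of group II and III receptors had medians of -0.18, -0.14 and 0.026 in the same order. In m6A over input, 5 of 67 genes had an adjusted P under 0.05 in KA mice, 2 upward and 3 downward, beside 3.08% of all genes, and 0 of 67 in PBS mice, beside 2.31% of all genes. The difference between the mice was not past the threshold for any of them. The 5 genes, with their log2 ratios, were the vesicular glutamate transporter gene Slc17a8 (1.79) and Fmr1 (0.68), whose product represses translation at synapses, and Glul (-0.80), the glutamine synthetase gene of astrocytes, Cyfip1 (-0.55), a partner of Fmr1, and Rimklb (-0.52), which makes the group II agonist NAAG.

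The receptors did not move as one set across libraries. Over the 19 m6A libraries, Pearson correlations of log2 CPM ran from -0.41 (Grm2 with Grm8) to 0.75 (Grm3 with Grm7), and over the 13 input libraries from -0.72 (Grm2 with Grm8) to 0.72 (Grm3 with Grm5). These are descriptions over libraries that share groups and depth. The 3 genes most like Grm5 over the m6A libraries were Gabra5 (r = 0.89), a GABA-A receptor subunit of hippocampal pyramidal cells, Gria2 (r = 0.88), an AMPA receptor subunit, and Ogfrl1 (r = 0.88), and over the input libraries r with Gria2 was 0.97. Those most like Grm2 were Fam20c, Ncan and Ckap4 (r = 0.90, 0.89 and 0.88), with Ncan the core protein gene of the neurocan proteoglycan. Grm3 was most like Snhg11, Ccdc39 and Cep68 (r = 0.88, 0.88 and 0.85), and Grm7 most like Zcchc7, Cspp1 and Lcor (r = 0.94, 0.94 and 0.93). Grm8 was most like Rab27b, a vesicle trafficking gene, Sgcz and Fnbp1l (r = 0.88 for each). For Grm4, the genes were Pdrg1, Idua and Zfp648 (r = 0.83, 0.79 and 0.79), and over the input libraries r with these genes was 0.55, 0.0052 and -0.20.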

How the data were processed

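Counts were analysed from 35 libraries of hippocampal RNA, 19 of m6A pulldown and 16 of input. Raw counts by gene symbol, in 4 lanes a library, were deposited by the authors, from libraries made with a stranded total RNA kit. Aligner, counter and strand setting were not given in the sources used here. Reads of genes that overlap a receptor could therefore be split. Lanes were summed over 140 columns, and 8 columns with no matching label were not used. The assay was in the column name for 8 libraries and was read from the prefix for 27. The 3 shallow input libraries entered 1 alternative only. No replicate pair of a group was within sampling noise (lowest chi-square per degree of freedom 5.12 over 59 pairs).

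edgeR 4.0.16 in R 4.3.3 was used with TMM scaling, filterByExpr, robust quasi-likelihood tests and Benjamini-Hochberg adjustment over all genes tested (threshold 0.05). SE is the absolute log2 fold change over the square root of F. Alternatives used DESeq2 1.42.0, other scaling, no filter, the library set as a block, fits with more libraries and each library left out in turn. Fits within 1 library set, without the 2 shallow m6A libraries and without the 2 m6A libraries rich in mitochondrial counts were chosen after seeing the data. Fits of m6A and input at 2 weeks used all libraries, and mouse numbers pair them because both come from 1 animal by the labels. Deviations from group means correlated at over 0.1 in 7 of 9 mice. In PBS mice 2 and 4 the correlations were -0.061 and -0.0094, and libraries of different mice were not compared in this way. P-values of KA against PBS measure the spread between single mice, to which the lone PBS mouse of input at 24 h adds none. In fits of m6A and input without the mouse block, both libraries of a mouse entered as if independent. Those P-values mix spread between mice with spread within them. CPM uses all counts of a library, and correlations use log2 CPM with a prior count of 2. The script was tested on simulated data. Python 3.11.15, pandas 2.3.3, numpy 2.4.6 and matplotlib 3.10.9 made tables and plots.

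The receptors, lists and tests were chosen with earlier results of these data known. Named genes are all 6 receptors, up to 8 listed genes per comparison past the threshold and the 3 genes most correlated with each receptor. Genes of lists outside that rule were named after their values were seen. The 12 marker lists (excitatory neuron, dentate granule cell, pyramidal cell, inhibitory neuron, astrocyte, microglia, oligodendrocyte and its precursor, endothelial cell, choroid plexus, thalamus and blood) had 0 genes past the threshold in comparisons of KA with PBS.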

Additional observations from a re-analysis of the deposited data

Results flagged for a closer look

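Of 24 groups of 4 to 10 libraries tested for a library far from the others (6 receptors, 4 groups), 3 held one, and chance alone gives one in about 1 of 20. In the m6A libraries of KA mice at 2 weeks, mouse 42 was at 209 CPM for Grm5, with the other 5 mice between 330.2 and 379.8 CPM, and at 25.3 CPM for Grm2, with the others between 8.38 and 13.8 CPM. Its input library was also the lowest KA library at 2 weeks for Grm5 and the highest for Grm2. In the m6A libraries of PBS mice at 2 weeks, mouse 4 was at 21.6 CPM for Grm4, with the others between 7.56 and 10.4 CPM, and it was the shallowest library of its group. No cause was tested for these values.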

How the results depend on the processing

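No receptor passed the threshold in any of the 8 comparisons as reported, and under the other settings 1 of 234 values did, Grm5 in m6A at 24 h with DESeq2, so the count of receptors called there moved from 0 to 1. With 1 library left out, 0 of 714 values passed. The signs of Grm5 in m6A at 24 h, in both inputs and in the interaction, and of Grm2 in input at 2 weeks, changed under 0 settings. These were the pairs of receptor and comparison with an unadjusted P under 0.05 as reported. The other settings share most of their libraries, so a stable sign was likely beforehand. Input at 24 h could not be run without its PBS library.

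Other signs changed in 16 of the 234 values. At 24 h, Grm4 in m6A was -0.048 with the library set as a block, -0.023 within set 4 and -0.0090 without the 2 shallow libraries. In m6A at 2 weeks, scaling by library size gave -0.054 (Grm2), -0.011 (Grm7) and -0.027 (Grm8), the set as a block -0.12 (Grm7) and -0.27 (Grm8), and set 5 alone -0.11 and -0.25. In input at 2 weeks, Grm4 was -0.60 with the set as a block and -0.59 within 1 set. In m6A over input of PBS mice, Grm5 was 0.042 with library size scaling and Grm2 -0.11 with mouse as a replicate block. The replicate block gave -0.11 (Grm7) and -0.073 (Grm8) for the change of m6A over input, and it changed no other call of a receptor.

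Leaving out each library in turn crossed 0 for 21 of 48 pairs of receptor and comparison. In m6A at 24 h the range was -0.045 to 0.84 for Grm2 and -0.13 to 0.65 for Grm4. In input at 24 h it was -0.043 to 0.62 (Grm2), -0.51 to 0.16 (Grm3), -0.37 to 0.026 (Grm7) and -0.33 to 0.034 (Grm8). In m6A at 2 weeks it was -0.24 to 0.22 (Grm2), -0.34 to 0.011 (Grm3), -0.40 to 0.071 (Grm4), -0.081 to 0.15 (Grm7) and -0.11 to 0.22 (Grm8). In input at 2 weeks it was -0.23 to 0.18 (Grm4) and -0.20 to 0.052 (Grm7). For the interaction it was -0.82 to 0.065 (Grm2) and -0.30 to 0.089 (Grm8). For m6A over input it was -0.067 to 0.11 (Grm7) and -0.048 to 0.29 (Grm8) in PBS mice and -0.041 to 0.17 (Grm5) in KA mice. For its change it was -0.16 to 0.19 (Grm3), -0.44 to 0.032 (Grm4) and -0.014 to 0.24 (Grm7).

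Counts of all genes called moved more than those of the receptors. In m6A at 24 h, 1 gene was called as reported, 156 with DESeq2, 3 with library size scaling, 22 without a filter, 31 with all 19 m6A libraries in 1 fit, 356 within set 4, 0 with the set as a block or without the 2 shallow libraries, and 45 without KA mouse 8. In m6A at 2 weeks, 0 were called as reported, 15 with DESeq2, 2 without a filter and 1 with all m6A libraries. In input at 24 h, 0 were called as reported, 197 with DESeq2, 1 with library size scaling, 3 without a filter, 2 with the set as a block, 8 with the 3 shallow libraries and 180 without KA mouse 8. In input at 2 weeks, 0 were called as reported, 116 with DESeq2 and 4 without a filter, and leaving out any other library gave 0 or 1 in these 4 comparisons. For the interaction, 1 was called as reported, 5 with DESeq2 and 2 with the set as a block. For m6A over input in PBS mice, 373 were called as reported, 900 with DESeq2, 1036 with library size scaling and with 1 library left out from 53 (input of PBS mouse 3) to 676 (m6A of KA mouse 6). In KA mice, 497 were called as reported, 918 with DESeq2, 1319 with library size scaling, 1544 with the replicate block and with 1 library left out from 214 (m6A of KA mouse 9) to 1036 (m6A of KA mouse 42). For its change, 0 were called as reported, 4 with DESeq2 and 1 with the replicate block. The cause of these moves was not tested.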
